A study of Mus musculus with 2 samples.

Results

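The genes described here are those of haemoglobin and of red cell maturation in single-cell libraries of mouse femoral cells. The rule named 8 genes, of which 7 were found among the 32285 genes measured: the alpha-globin genes *Hba-a1* and *Hba-a2*, the beta-globin genes *Hbb-bs* and *Hbb-bt*, *Alas2*, *Slc4a1* and *Bpgm*. The eighth, *Ahsp*, the chaperone of free alpha-globin, was not analysed here. They were chosen by name. Each gene was followed along erythroid barcodes ordered by the number of genes detected in them, and then as free RNA in barcodes of other cells.

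Both libraries came from 7-week-old C57BL/6J mice, 1 untreated and 1 calcitriol-injected. Calcitriol is the active form of vitamin D, injected daily, 3 times at 2.5 μg/kg. Tissue was collected 24 h after the final dose. The femurs of 6 mice had been pooled per group, the marrow flushed out, the bone digested with collagenase and EGTA, and CD45-positive cells depleted, in both groups alike. Each group is therefore 1 library, no difference between the groups has a replicate check, and no p-value was computed. Every interval below is at the 95% level and covers counting error only.

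Haemoglobin is built from alpha and beta chains, each holding a haem group that carries oxygen. Erythroblasts load their cytoplasm with globin mRNA, stop dividing and expel the nucleus, after which the reticulocyte loses its mitochondria, its ribosomes and finally its RNA. *Alas2* encodes the erythroid form of the first and rate-limiting enzyme of haem synthesis. *Slc4a1* encodes band 3, the anion exchanger of the red cell membrane, which also anchors the membrane skeleton. *Bpgm* encodes the enzyme that makes 2,3-bisphosphoglycerate, which lowers the oxygen affinity of haemoglobin.

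In the GRCm38 annotation (mm10), the alpha-globin genes lie on the plus strand of chromosome 11, *Hba-a1* at chr11:32283511-32284465 and *Hba-a2* at chr11:32296489-32297298. The beta-globin genes lie on the minus strand of chromosome 7, *Hbb-bs* at chr7:103826534-103828096 and *Hbb-bt* at chr7:103812524-103813996. *Alas2* is at chrX:150547375-150570638 and *Bpgm* at chr6:34476207-34505613, both on the plus strand, and *Slc4a1* is at chr11:102348824-102366203 on the minus strand.

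The paired globin genes are near-identical copies, which bears on every value given for one of them alone. The coding sequences of *Hba-a1* and *Hba-a2*, 429 bases each with the stop codon, differed at 1 base, and those of *Hbb-bs* and *Hbb-bt*, 444 bases each, also differed at 1 base. By contrast, *Hba-a1* and *Hbb-bs* were identical in 60.5% of 463 aligned positions. The stretch of 60 coding bases around each of the single differences is shown, 5′ to 3′, because it is the only part of the coding sequence that tells the copies apart, and the capital marks the base that differs. The windows span chr11:32284313-32284372, chr11:32297130-32297189, chr7:103826665-103826724 and chr7:103812656-103812715.
Hba-a1: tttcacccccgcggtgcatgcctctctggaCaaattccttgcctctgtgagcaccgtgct
Hba-a2: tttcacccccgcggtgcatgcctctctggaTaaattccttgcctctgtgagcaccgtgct
Hbb-bs: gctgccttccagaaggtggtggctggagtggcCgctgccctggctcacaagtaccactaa
Hbb-bt: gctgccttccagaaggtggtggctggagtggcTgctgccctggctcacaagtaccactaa

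The libraries hold reads from the 3′ ends of transcripts, so the 3′ untranslated regions matter more than the coding sequence. Over the 74 bases that the annotated 3′ untranslated regions of *Hba-a1* and *Hba-a2* share, no base differed, and that of *Hba-a2* is annotated 16 bases longer. The 3′ untranslated regions of *Hbb-bs* and *Hbb-bt* differed in 40 of 134 aligned positions. How reads were divided between *Hba-a1* and *Hba-a2*, and how many were lost in counting, is therefore uncertain. *Hbb-bs* and *Hbb-bt*, by contrast, can be told apart by reads in their 3′ untranslated regions. Reads in the coding sequence could do so only at its 1 differing base, and where the reads fell was not examined.

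The bases upstream of 3 of the genes are shown. *Hba-a2* and *Bpgm* were the genes at least 2-fold higher in the barcodes with the fewest detected genes, and *Alas2* differed there from the other genes of haem synthesis. The sequences come from RefSeq promoters (GRCm38.p6), end just before the first annotated start, and read 5′ to 3′ on the plus strand. Capitals mark matches, on either strand, to the motifs spelled out after the sequences. The stretches span chr11:32296242-32296488, chrX:150547167-150547374 and chr6:34476106-34476206.
Hba-a2: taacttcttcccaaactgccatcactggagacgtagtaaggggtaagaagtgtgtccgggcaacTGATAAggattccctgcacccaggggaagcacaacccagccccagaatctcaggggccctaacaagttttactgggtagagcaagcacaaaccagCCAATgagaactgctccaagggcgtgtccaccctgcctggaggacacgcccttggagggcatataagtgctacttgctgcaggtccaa
Alas2: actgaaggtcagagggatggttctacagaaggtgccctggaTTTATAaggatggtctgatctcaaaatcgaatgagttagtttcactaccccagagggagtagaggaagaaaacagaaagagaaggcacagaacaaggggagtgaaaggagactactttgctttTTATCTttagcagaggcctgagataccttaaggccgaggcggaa
Bpgm: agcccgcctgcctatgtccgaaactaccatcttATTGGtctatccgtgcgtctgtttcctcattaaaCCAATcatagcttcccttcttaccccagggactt

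Promoters of 300 bases were matched for 6 of the genes. The GATA letters, searched as AGATAA and with a leading T as TGATAA, were found in the promoters of *Hba-a1*, *Hba-a2*, *Hbb-bs* and *Alas2* and in 18.6% of all 32851 promoters. CCAAT was found in the promoters of all 4 globin genes and of *Bpgm* and in 37.4% of all. The CACCC letters (CCACACCC or CCGCACCC) were found in that of *Hbb-bs* and in 5.31% of all. The TATA motif, searched as TATAAA and with a leading C as CATAAA, was found in those of *Hbb-bt* and *Alas2* and in 22.8% of all. These are matches of letters, and a match is not a binding site. A promoter without a match may still hold such a site in another spelling, since only the letters given were searched.

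The untreated library held 6076 barcodes with 70266983 unique molecular identifiers (UMIs, each counting 1 captured mRNA molecule), and the calcitriol library held 4562 barcodes with 60392557 UMIs. Of all UMIs, the 4 globin genes accounted for 41.2% in the first and 10.6% in the second. A barcode was called erythroid when at least 2 of 22 erythroid marker genes, none of them among the genes described, were detected and when these had more UMIs than 80 markers of other cells together. That gave 3522 erythroid barcodes (58.0%) in the untreated and 782 (17.1%) in the calcitriol library. The share of erythroid cells thus differed between the libraries, and whether through the injections or through the dissociation and depletion cannot be told apart. The libraries shared 8 barcodes.

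Haemoglobin, which the rule had not used, served to check the label. Of all haemoglobin UMIs, 96.2% lay in erythroid barcodes of the untreated and 90.3% in those of the calcitriol library, and 48 and 19 erythroid barcodes had less than 10% haemoglobin. The marker sums themselves were set by the rule and check nothing. They came to 8467 and 7304 CPM for the 22 erythroid markers (CPM is the UMIs of a gene or list over all UMIs, times 1000000) and to between 0.904 and 56.8 CPM for each of the 8 lists of other cell types, lowest for leukocytes with 8 and 5 of 12 markers detected. In 32 untreated and 20 calcitriol erythroid barcodes at least 3 different markers of another class were detected.

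The share of haemoglobin rose as fewer genes were detected, and in both libraries alike. Among untreated barcodes with at least 1000 detected genes (859), the share had a median of 56.0%. With 200 to under 1000 genes (1457 barcodes) it was 81.3%, and with fewer than 200 genes (1206 barcodes) 96.4%. The medians of the calcitriol library were 54.5% (68 barcodes), 81.0% (365) and 95.7% (349). The number of genes that can be detected falls when a few genes take most of the UMIs, so this order is partly built into the bins.

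**Figure D1:**
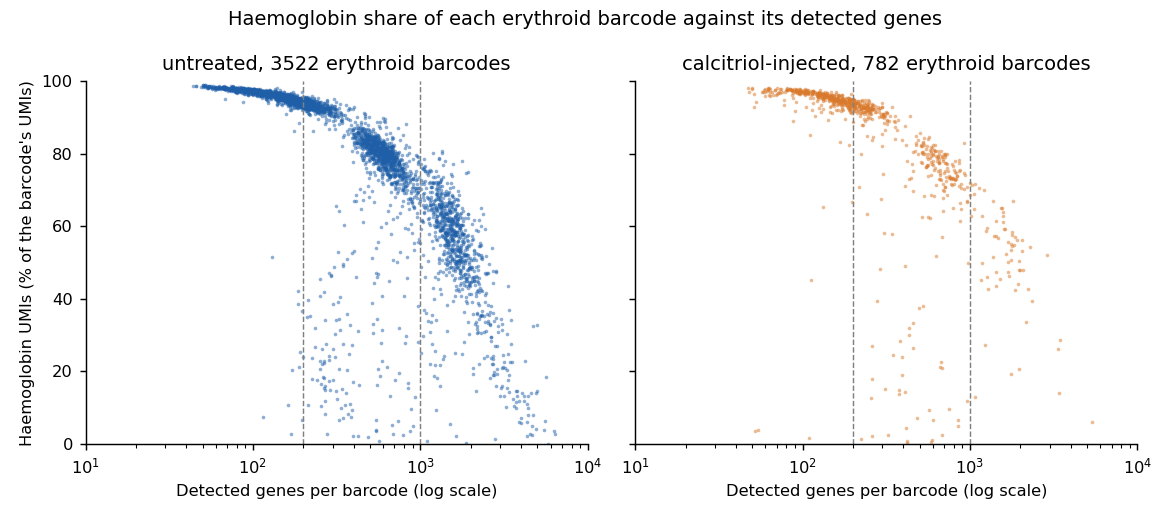
Each point is 1 erythroid barcode, with its number of detected genes on a log scale (x axis) and its haemoglobin UMIs as a percentage of all its UMIs (y axis), untreated on the left and calcitriol-injected on the right, and dashed lines at 200 and 1000 genes. The main band falls from median shares of 96.4% and 95.7% under 200 genes to 56.0% and 54.5% at 1000 genes or more, and scattered barcodes lie below it.

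Depth differed less than the share. Median UMIs per barcode were 9239, 9655 and 12176 from the lowest to the highest bin of the untreated library and 8223, 9698 and 11154 in the calcitriol library. Haemoglobin UMIs per barcode had medians of 8920, 7996 and 6323 in the untreated library, while all other UMIs together had medians of 344, 1585 and 4998. The other mRNA differed far more between the bins than haemoglobin did, which is largely built into bins made from the number of detected genes. Ribosomal protein genes, which every growing cell expresses, had median shares of 0.146%, 0.386% and 1.87% in the same order, and mitochondrial transcripts 0.0615%, 0.234% and 0.697%. These are shares of all UMIs, of which haemoglobin takes the most in the lower bins. They therefore do not show a loss relative to the other mRNA.

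Some barcodes lay below the main band. With 200 to under 1000 genes, 138 untreated barcodes had less than 60% haemoglobin, with a median of 1292 UMIs against 9972 in the others of that bin. In the calcitriol library there were 44, with 1505 against 10087 UMIs. The 60% limit was chosen after the values had been seen.

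The alpha-globin genes followed haemoglobin as a whole. *Hba-a1* stood at 187939, 152857 and 101167 CPM in untreated barcodes with under 200, 200 to under 1000 and 1000 or more genes. With calcitriol it stood at 181876, 152454 and 107315 CPM. *Hba-a2* stood at 146949, 123309 and 61501 CPM in the untreated library and at 139715, 116954 and 54835 CPM in the calcitriol library. Both were therefore highest where the fewest genes were detected, and *Hba-a2* dropped off more steeply than *Hba-a1* toward the barcodes with many genes.

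Of the beta-globin genes, *Hbb-bs* had the most UMIs of all 7, where each UMI stands for 1 captured molecule whatever its length. It stood at 512307, 439890 and 263220 CPM in the untreated library. After calcitriol it stood at 529287, 467057 and 277700 CPM. *Hbb-bt* differed in shape, with 114051, 115222 and 69537 CPM in the untreated and 102511, 99424 and 57037 CPM in the calcitriol library. Its levels in the lower pair of bins were thus closer to each other than those of the other globin genes.

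*Alas2* stood at 1935, 2090 and 1169 CPM in the untreated library (intervals 1909 to 1961, 2066 to 2114 and 1149 to 1189). In the calcitriol library it stood at 2141, 2176 and 1468 CPM. Per barcode this came to 17.9, 19.6 and 15.9 UMIs in the untreated library, a narrow range, with the middle bin highest. At least 1 *Alas2* UMI was found in 99.4%, 97.6% and 99.1% of those barcodes.

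*Slc4a1* ran the other way. Untreated barcodes held 43.6, 1275 and 2002 CPM (intervals 39.8 to 47.6, 1256 to 1294 and 1976 to 2028), and calcitriol barcodes 50.2, 1307 and 2713 CPM. The mean per untreated barcode was 0.404, 11.97 and 27.2 UMIs. The median barcode with under 200 genes held 0 UMIs of *Slc4a1* in both libraries, and a UMI was found in 25.4% and 22.6% of these barcodes, against 99.7% and 98.5% of those with 1000 genes or more.

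*Bpgm* was highest in the middle. It stood at 1720, 2404 and 198.6 CPM in the untreated library (intervals 1695 to 1744, 2378 to 2430 and 191 to 207) and at 1835, 2414 and 304 CPM in the calcitriol library. Each untreated barcode held 15.9, 22.6 and 2.69 UMIs on average. The step lay at about 1000 detected genes, where *Bpgm* changed by an order of magnitude while *Slc4a1* was still high.

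In finer bins, *Hba-a1*, *Hba-a2* and *Hbb-bs* were highest at under 100 genes in both libraries, and *Hbb-bt* was highest at 200 to under 500 genes, with 121695 and 109434 CPM. *Bpgm* also peaked at 200 to under 500 genes, with 2676 and 2678 CPM in the untreated and calcitriol libraries, and was down to 222 and 341 CPM at 1000 to under 2000 genes. *Alas2* peaked at 500 to under 1000 genes, with 2156 and 2227 CPM. *Slc4a1* peaked at 1000 to under 2000 genes in the untreated library, with 2263 CPM, and at 2000 to under 3000 genes in the calcitriol library, with 2924 CPM over only 8 barcodes, next to 2892 CPM at 1000 to under 2000 genes. Below 100 genes, *Slc4a1* had 17 UMIs in 352 untreated barcodes (6.06 CPM) and 1 UMI in 87 calcitriol barcodes (2.10 CPM), while *Bpgm* still stood at 880 and 956 CPM and *Alas2* at 1845 and 1995 CPM. The places of these peaks depend on the total. With haemoglobin left out of it, *Hbb-bt* and *Alas2* were highest at under 100 genes in both libraries. *Bpgm* was then highest at 100 to under 200 genes and *Slc4a1* at 500 to under 1000. Per barcode, *Bpgm* stayed highest at 200 to under 500 genes. *Slc4a1* was highest at 3000 or more in the untreated and at 2000 to under 3000 in the calcitriol library.

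**Figure D2:**
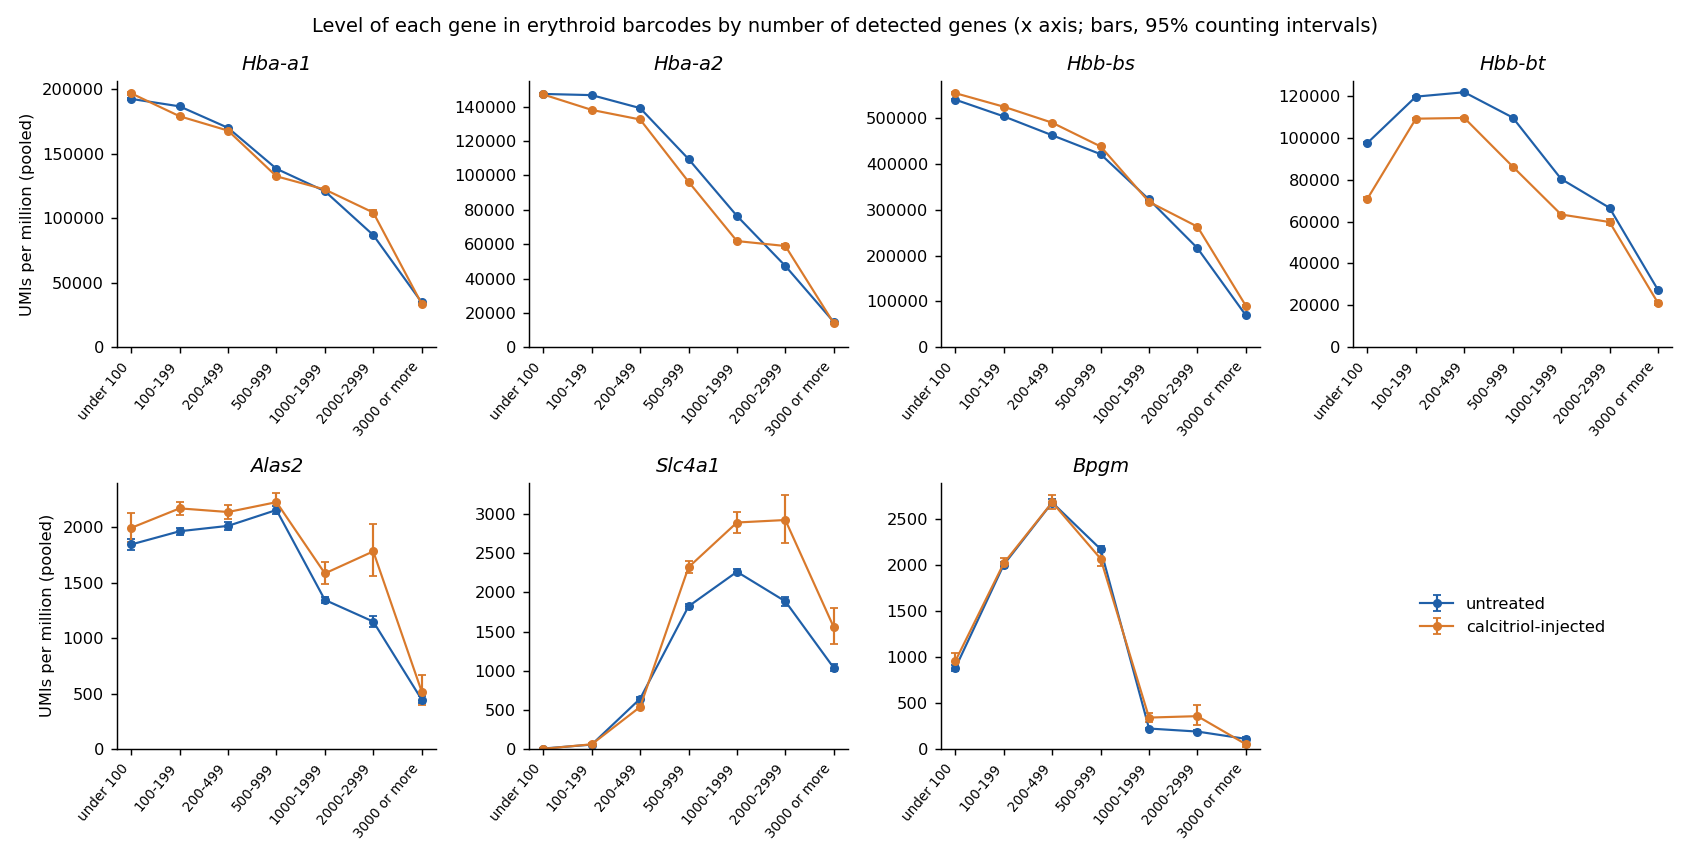
One panel per gene shows its pooled level in CPM (y axis, from 0) in 7 bins of detected genes (x axis, fewest at the left), for both libraries, with 95% counting intervals as bars. The curves of *Hba-a1*, *Hba-a2* and *Hbb-bs* fall from left to right, those of *Hbb-bt*, *Alas2* and *Bpgm* peak inside the range (*Bpgm* at 2676 and 2678 CPM), and that of *Slc4a1* starts at 6.06 and 2.10 CPM.

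Between the barcodes with under 200 genes and those with 1000 or more, 2 of the 7 genes, *Hba-a2* and *Bpgm*, were at least 2-fold higher in each library. Of all 7665 genes with enough UMIs in the untreated library, 0.0913% were (7 genes), and of 2977 in the calcitriol library, 0.302% (9 genes). At least 2-fold lower was 1 of the 7, *Slc4a1*, against a background of 98.2% and 97.2% of all genes. The median log2 ratio over all genes was -5.43 and -5.52. Since the bins were made from the number of detected genes, a low median is built into this comparison.

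*Bpgm* had the largest ratio, at a log2 of 3.11 (interval 3.05 to 3.18) in the untreated and 2.59 (2.41 to 2.78) in the calcitriol library. *Hba-a2* followed with 1.26 and 1.35. *Hbb-bs* came to 0.96 and 0.93, *Hba-a1* to 0.89 and 0.76, *Hbb-bt* to 0.71 and 0.85, and *Alas2* to 0.73 and 0.54. *Slc4a1* stood at -5.52 (-5.65 to -5.39) and -5.76 (-6.02 to -5.51), close to the median of all genes, with 48.1% and 43.9% of all genes below it.

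A gene's share of all UMIs depends on what the other genes take, and haemoglobin takes most. With haemoglobin left out of the totals, 6 of the 7 were at least 2-fold higher in the barcodes with under 200 genes, against 5.35% of all genes in the untreated and 6.35% in the calcitriol library, and 1 was at least 2-fold lower, against 63% and 81.9%. The 6 were the 4 globin genes, *Alas2* and *Bpgm*. Globin UMIs were left out of the totals but still counted for the globin genes. Within a comparison this shifts the log2 ratio of every gene by the same amount. The added rise is therefore built in for all 6, and the order of the genes does not change. The log2 ratio of *Alas2* was then 4.43 and 3.98, that of *Bpgm* 6.82 and 6.03, and that of *Slc4a1* -1.82 and -2.33, beside medians over all genes of -1.73 and -2.09. *Slc4a1* lay near the median of all genes on both scales, and the common shift fixes its place on the second by the first. Counted as UMIs per barcode, with no total at all, only *Bpgm* of the 7 remained at least 2-fold higher, at a log2 ratio of 2.56 and 1.95, with haemoglobin at 0.41 and 0.30. No share over all genes is given on that scale, so this count has no background. *Alas2* per barcode came to 0.18 in the untreated library and turned to -0.10 in the calcitriol library, and *Slc4a1* came to -6.07 and -6.40.

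**Figure D3:**
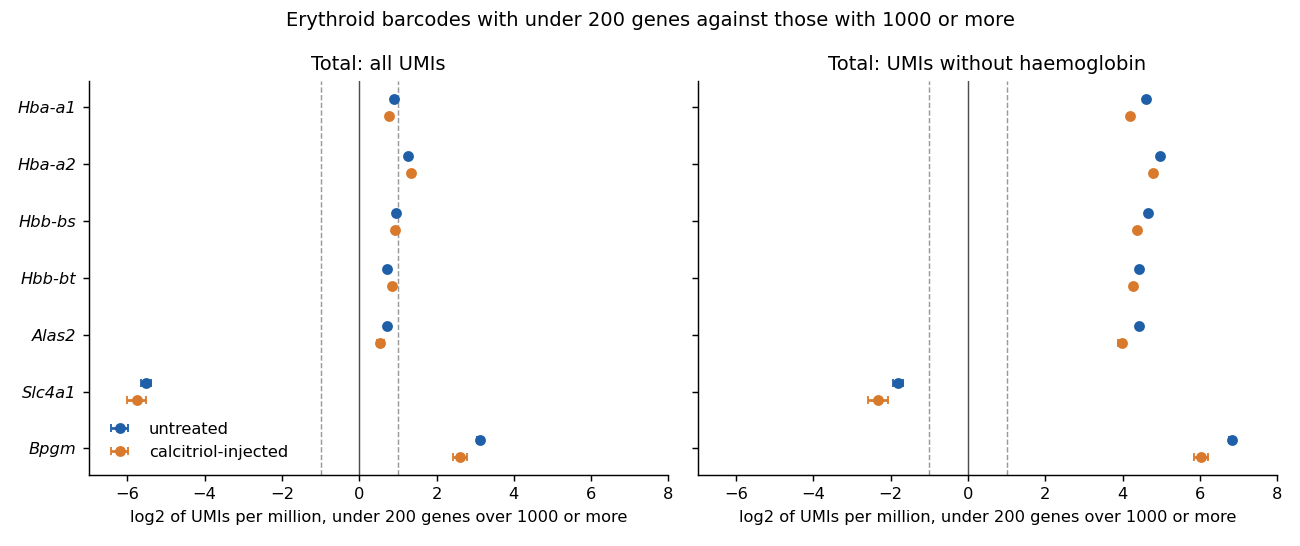
Log2 ratio of CPM between erythroid barcodes with under 200 and with 1000 or more detected genes (x axis) for each of the 7 genes (y axis), with all UMIs as the total on the left and UMIs without haemoglobin on the right. Points are the 2 libraries, bars 95% counting intervals and dashed lines a 2-fold difference, and *Slc4a1* alone lies left of 0 on both scales, at -5.52 and -1.82 in the untreated library.

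Between 200 to under 1000 and 1000 or more genes, *Bpgm* had its largest step, with a log2 ratio of 3.60 (3.54 to 3.66) in the untreated and 2.99 (2.81 to 3.18) in the calcitriol library. With *Hba-a2* at 1.00 and 1.09, 2 of the 7 were at least 2-fold higher, against 1.52% and 1.6% of all genes. *Slc4a1* stood at -0.65 and -1.05 on the scale of all UMIs, so that at least 2-fold lower were 0 of the 7 in the untreated and 1 in the calcitriol library, against 87.7% and 84% of all genes. That direction turned through the common shift when haemoglobin was left out of the totals, to 0.93 and 0.56.

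Between under 200 and 200 to under 1000 genes, *Slc4a1* was the gene that differed most of the 7, at a log2 ratio of -4.87 and -4.70, and it was the 1 gene of the 7 at least 2-fold lower, as were 93.7% and 88.8% of all genes. None of the 7 was at least 2-fold higher, against 0% and 0.156% of all genes. *Bpgm* was also lower there, at -0.48 and -0.40, and *Alas2* stood at -0.11 and -0.02. Without haemoglobin in the totals the common shift turned the sign of *Bpgm*, to 1.64 and 1.42, and of *Alas2*, to 2.01 and 1.79.

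Each erythroid barcode was also thinned to 2000 UMIs in all, haemoglobin included, which left out 12, 99 and 0 untreated and 12, 35 and 0 calcitriol barcodes from the lowest to the highest bin. A UMI of *Slc4a1* was then found in 7.54%, 77.2% and 95.1% of the untreated barcodes and in 8.90%, 71.5% and 94.1% of the calcitriol barcodes. For *Bpgm* the shares were 88.3%, 91.9% and 22.7% in the untreated and 90.8%, 93.6% and 26.5% in the calcitriol library. For *Alas2* they were 96.6%, 97.3% and 86.5%, and 97.9%, 96.4% and 95.6%. *Slc4a1* and *Bpgm* thus kept the order of their pooled levels over the 3 bins in each library, as did *Alas2* in the untreated library, while in the calcitriol library the share of *Alas2* was highest in the lowest bin. Haemoglobin takes most of the 2000 UMIs in the lower bins, so the number of other UMIs was not made equal. Before thinning, *Bpgm* had been found in 97.3%, 94.99% and 59.8% of the untreated barcodes.

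The copies of each globin gene were not used in a constant proportion. UMIs of *Hba-a2* per UMI of *Hba-a1* came to 0.782, 0.807 and 0.608 in untreated barcodes with under 200, 200 to under 1000 and 1000 or more genes, and to 0.768, 0.767 and 0.511 in calcitriol barcodes. In the 62 untreated and 4 calcitriol barcodes with 3000 or more genes the ratio was lower still, at 0.425 and 0.417. It was highest at 200 to under 500 genes, at 0.820 and 0.791, and lower again at under 100 genes, at 0.767 and 0.749. How reads were divided between the copies remains uncertain.

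*Hbb-bt* per *Hbb-bs* behaved differently. The ratio was 0.223, 0.262 and 0.264 in the untreated and 0.194, 0.213 and 0.205 in the calcitriol library, from the lowest bin to the highest. In finer bins of the untreated library it was 0.394 at 3000 or more genes, 0.261 at 500 to under 1000 genes and 0.181 at under 100 genes. With calcitriol the same bins gave 0.234, 0.197 and 0.128. The calcitriol library lay below the untreated one in each of the 7 finer bins.

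UMIs of both alpha genes per UMI of both beta genes stayed in a narrower range. They came to 0.535, 0.497 and 0.489 in the untreated and 0.509, 0.476 and 0.484 in the calcitriol library. In finer bins the lowest ratio of the untreated library was 0.467, at 500 to under 1000 genes. The calcitriol library stood at 0.437 there and at 0.427 in its 4 barcodes with 3000 or more genes. Near-identical copies may lose reads in counting, and the shared 3′ untranslated bases of the alpha genes are identical. The ratio is therefore not a measure of alpha mRNA against beta mRNA.

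**Figure D4:**
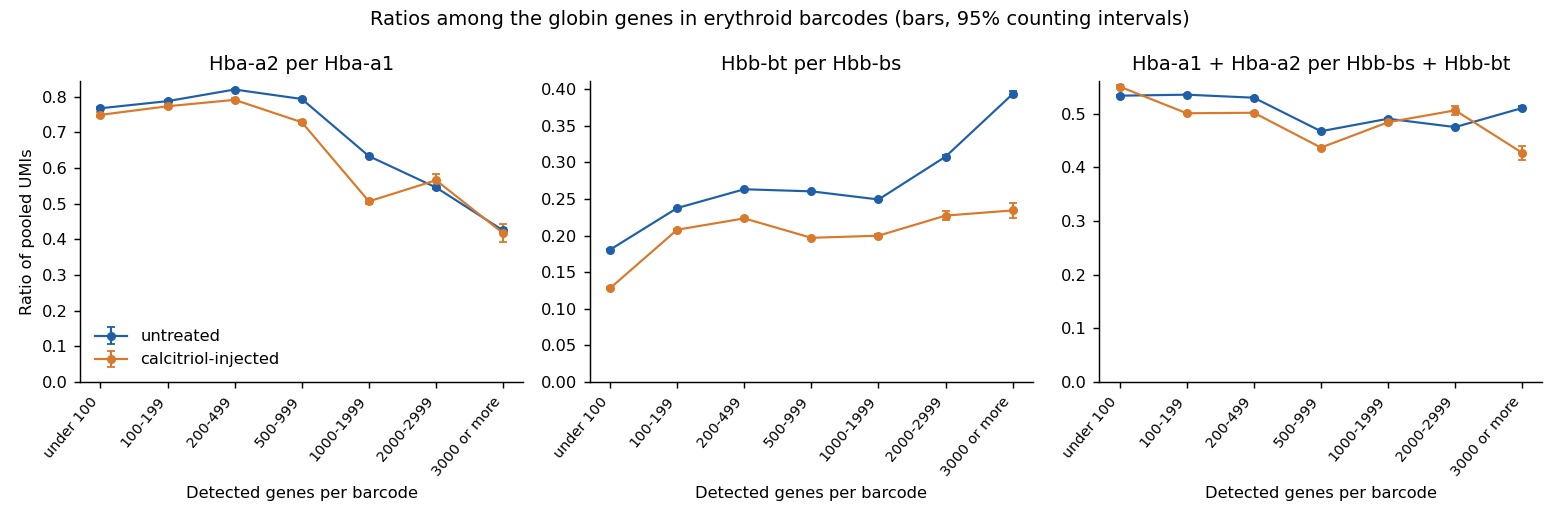
Ratios of pooled UMIs among the globin genes (y axes, from 0) in 7 bins of detected genes (x axes, fewest at the left) for both libraries, with 95% counting intervals as bars. *Hba-a2* per *Hba-a1* falls to 0.425 and 0.417 at the right, *Hbb-bt* per *Hbb-bs* falls to 0.181 and 0.128 at the left, and alpha per beta stays between 0.427 and 0.550.

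Some barcodes with few genes held very little *Hbb-bt*. Among erythroid barcodes with under 200 genes and at least 100 beta-globin UMIs, *Hbb-bt* had less than 0.1 UMIs per UMI of *Hbb-bs* in 28 of 1199 untreated barcodes (2.34%, interval 1.56% to 3.36%) and in 36 of 346 calcitriol barcodes (10.4%, 7.39% to 14.1%). With 1000 genes or more there were 0 of 855 and 0 of 68, with intervals reaching 0.431% and 5.28%. Barcodes that were called neither erythroid nor another cell but held at least 10% haemoglobin had a median of 79 and 65 detected genes. Of these, 12 of 49 untreated (24.5%, 13.3% to 38.9%) and 50 of 66 calcitriol barcodes (75.8%, 63.6% to 85.5%) had so low a ratio. The limit of 0.1 was chosen after the values had been seen.

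Within a bin, the calcitriol and untreated libraries were compared gene by gene. None of the 7 differed by 2-fold or more in any of the 3 bins. Most of all genes did not either, so for 7 genes this count is near the background. At under 200 genes, 15.2% of 906 genes were at least 2-fold higher in the calcitriol library and 5.08% lower. At 200 to under 1000 genes these shares were 7.56% and 10.8% of 3915 genes, and at 1000 or more genes 9.07% and 9.47% of 7770. Haemoglobin as a whole differed by a log2 ratio of -0.012, 0.008 and 0.004 between the libraries, calcitriol over untreated. Both positive values turned negative under some alternatives, to -0.07 and -0.13 as UMIs per barcode. The value at under 200 genes became -0.28 without haemoglobin in the totals. At under 200 genes the median over all genes was 0.20, and it was -0.06 with haemoglobin left out of the totals.

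*Hbb-bt* was lower in the calcitriol library in each bin, by a log2 ratio of -0.15, -0.21 and -0.29 from the lowest bin to the highest, and it was lower under every alternative tried. *Hba-a2* was lower as well, with -0.07, -0.08 and -0.17. *Hbb-bs* came to 0.05, 0.09 and 0.08, but its sign turned at under 200 genes without haemoglobin in the totals (-0.22) and at 1000 or more genes with barcodes chosen by 10% haemoglobin (-0.11), and in both bins as UMIs per barcode (-0.17 and -0.05). *Hba-a1* came to -0.05, -0.004 and 0.09, and the last of these turned to -0.20 with barcodes chosen by 10% haemoglobin and to -0.04 as UMIs per barcode. Its middle value also turned, to 0.004 by 10% haemoglobin and to 0.04 without haemoglobin in the totals. In the barcodes with 1000 or more genes, of which the calcitriol library held 68, *Bpgm* was higher by 0.61 (0.42 to 0.80), *Slc4a1* by 0.44 (0.38 to 0.50) and *Alas2* by 0.33 (0.24 to 0.41). In the other bins *Bpgm* came to 0.09 and 0.01, *Slc4a1* to 0.20 and 0.04, and *Alas2* to 0.15 and 0.06, and each of these 6 values changed sign under at least 1 alternative. Calling barcodes erythroid by 10% haemoglobin instead of by markers turned the value of *Slc4a1* at 1000 or more genes to -0.28. That alternative chooses barcodes by genes described here and takes in barcodes with markers of other cells. With it this bin of the calcitriol library grew from 68 to 110 barcodes. Over all bins of that library, 44 barcodes classed non-erythroid had 10% haemoglobin.

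The pathway lists below are read against all genes, of which 98.2% in the untreated and 97.2% in the calcitriol library were at least 2-fold lower in barcodes with under 200 genes than in those with 1000 or more. A count in which nearly all members are lower is therefore near the background. With haemoglobin left out of the totals, 63% and 81.9% of all genes were lower and 5.35% and 6.35% higher, and each list is given on that scale too. That scale shifts every gene of a library by the same amount, so the order of the genes is the same on both.

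Of 8 genes of haem synthesis, 7 had enough UMIs in the untreated library, and all 7 were at least 2-fold lower, with a median log2 ratio of -8.13, beside -5.43 over all genes. *Alad*, whose enzyme condenses the product of *Alas2*, was the lowest, at 0.806, 51.8 and 565 CPM from the lowest bin to the highest and a log2 ratio of -9.45. *Fech*, which inserts the iron into haem, was least lowered, at 246, 579 and 637 CPM and -1.37. With calcitriol, again all 7 tested were lower, with a median of -7.86. Without haemoglobin in the totals, 6 of the 7 were lower and 1 was higher in each library, *Fech* at 2.33 and 2.07, the direction of *Alas2*. *Fech* was also among the markers that defined the erythroid barcodes, so its level there depends in part on that choice.

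Among the mitochondrial carriers for haem synthesis, 4 of 5 were at least 2-fold lower (median -8.40). *Slc25a39*, which carries glutathione into mitochondria, was the exception, at 359, 394 and 197 CPM and 0.86, and *Tmem14c*, needed for porphyrin transport, was the lowest at -10.02. For iron uptake and storage, 5 of 6 were lower (median -6.80), from *Ftl1*, the ferritin light chain, at -0.68 to *Tfrc*, the transferrin receptor, at -8.38. In the calcitriol library 4 of 5 carriers and 3 of 4 iron genes were lower. Over all UMIs neither list had a gene at least 2-fold higher, but without haemoglobin in the totals 2 carriers and 1 iron gene were higher in each library, among them *Slc25a39* at 4.57 and 3.71 and *Ftl1* at 3.03 and 3.41. The other carrier, *Slc25a37* at 1.23 and 1.41, was also among the markers that defined the erythroid barcodes.

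Of 15 membrane and skeleton genes with enough UMIs, 14 were at least 2-fold lower in each library, with medians of -6.87 and -6.73. *Epb41*, which encodes protein 4.1 of the membrane skeleton, stood at 324, 824 and 343 CPM and a log2 ratio of -0.08. *Gypc*, which encodes glycophorin C, was the lowest at -11.16, resting on 1 UMI in the barcodes with under 200 genes (interval -16.46 to -8.68). Without haemoglobin in the totals, 12 of the 15 were lower and 1, *Epb41*, was higher in each library, at 3.62 and 3.47.

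All 10 erythroid transcription factors tested in the untreated and all 7 tested in the calcitriol library were lower, with medians of -7.17 and -7.01. Among those with a UMI in both bins of the untreated library, *Lmo2* was least lowered, at 30.5, 277 and 415 CPM and -3.76. *Klf1*, an activator of the beta-globin genes, was the lowest of them at -9.44. Cell cycle genes were lower for 8 of 8 in each library, with medians of -9.32 and -9.60. Untreated values ran from *Cdk1*, a kinase of mitosis with 1 UMI at under 200 genes, at -12.03 (-17.33 to -9.55) to *Pcna*, the sliding clamp of DNA replication, at -9.13. *Mcm5* and *Mcm6*, with 0 UMIs there at under 200 genes, have no ratio and are outside this range. Without haemoglobin in the totals, 8 of 10 and 7 of 7 transcription factors and again 8 of 8 cell cycle genes in each library were lower, and none was higher. In these medians a gene without a UMI in 1 bin was entered at a floor of 3 UMIs. Of the 77 genes in all lists, 13 were also among the markers that defined the erythroid barcodes.

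Of 8 genes of organelle and protein clearance, 3 were at least 2-fold lower and 1 was higher in each library, with medians of 0.29 and 0.26, beside -5.43 and -5.52 over all genes. Without haemoglobin in the totals, 5 were higher and 0 lower in the untreated library and 5 higher and 2 lower in the calcitriol library, with medians of 3.99 and 3.70, beside -1.73 and -2.09 over all genes. *Mkrn1*, which encodes a ubiquitin ligase, was highest at 1399, 1948 and 533 CPM and 1.39, and *Fbxo7*, an F-box protein of ubiquitin ligases, was lowest at 3.76, 34.4 and 84.1 CPM and -4.48. *Bnip3l*, the receptor through which reticulocytes clear mitochondria, stood at 662, 967 and 334 CPM and 0.99. *Xpo7*, a nuclear transport receptor, stood at 8.06, 1374 and 133 CPM, with its highest level in the middle bin. *Bnip3l* and *Xpo7* were named after their values had been seen.

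Oxidant protection and red cell glycolysis genes were lower for 8 of 9 in the untreated library (median -3.64) and for 4 of 5 in the calcitriol library (median -3.07). Without haemoglobin in the totals, 1 was lower and 2 were higher of the 9 and likewise of the 5, with medians of 0.06 and 0.36. *Cat*, which encodes catalase, was the highest, at 53.5, 197 and 43.6 CPM and 0.30 in the untreated and 1.19 in the calcitriol library, and *Hk1*, a hexokinase, the lowest at -7.10. Of the other globin genes, 2 of 6 had enough UMIs. *Hbq1a*, a theta-globin gene, was higher at under 200 genes with 32.5, 27.1 and 5.75 CPM and 2.499, and *Hbq1b* was lower with 26.9, 112 and 164 CPM and -2.60. The same was found in the calcitriol library, at 3.76 (interval 1.86 to 6.83) and -2.45. The first of these rests on 89 UMIs at under 200 genes and 2 at 1000 or more. Without haemoglobin in the totals *Hbq1b* turned to 1.10 in the untreated and 0.98 in the calcitriol library.

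To find the genes with the most similar course, the level of each of 3822 genes was correlated with that of each of the 7 over the 14 groups made by 7 finer bins in 2 libraries. These groups share their libraries and the part of the UMIs that haemoglobin takes, and the correlations are descriptions. *Hba-a1*, *Hba-a2* and *Hbb-bs* were nearest to each other, with Pearson's r of 0.99. *Alas2* was nearest to *Hbb-bs* (0.97), *Ube2l6* (0.95), a ubiquitin-conjugating enzyme, and *Hba-a1* (0.95). *Slc4a1* was nearest to *Azin1*, *Urod* and *Ctsb* (0.99 each), where *Urod* is an enzyme of haem synthesis with 14.3, 324 and 506 CPM in the untreated library. *Bpgm* was nearest to *Ccndbp1* (0.97), *Slc25a39* (0.94) and *Mkrn1* (0.94).

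Barcodes of other cells also held haemoglobin mRNA. A barcode was called non-erythroid when at least 3 different markers of 1 of 8 other cell classes were found. The UMIs of all 80 markers of other cells together also had to outnumber the erythroid ones. That gave 2216 untreated and 3361 calcitriol barcodes. The median was 17 haemoglobin UMIs per barcode in the untreated and 4 in the calcitriol library. Only 1 and 69 barcodes held none. Class medians lay between 13 (Schwann) and 20 (chondrocyte) in the untreated and between 3 and 4 in the calcitriol library, so the level followed the library much more than the cell class. The untreated library also held the larger share of erythroid barcodes and of haemoglobin UMIs, 41.2% against 10.6%.

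**Figure D5:**
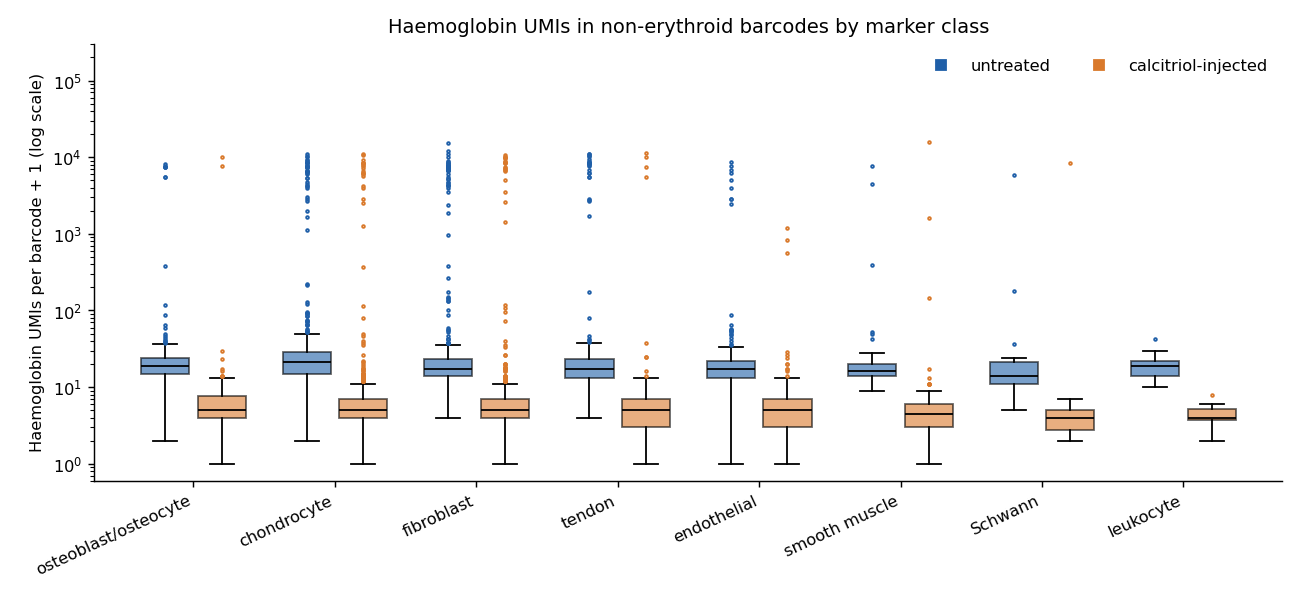
Haemoglobin UMIs per non-erythroid barcode, plus 1, on a log scale (y axis), by marker class (x axis) and library, with boxes for the quartiles, the line for the median, whiskers to 1.5 box lengths and points beyond. Every untreated box lies above the calcitriol box of its class, with medians of 17 and 4 UMIs over all classes, and a scatter of barcodes reaches 15245 and 15727 UMIs.

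Most haemoglobin UMIs of these barcodes came from few of them. At least 10% of the UMIs were haemoglobin in 118 untreated and 44 calcitriol barcodes, which held 92.7% and 91.2% of all haemoglobin UMIs of the non-erythroid barcodes. In them, *Bpgm* stood at 2.41 and 2.68 UMIs per 1000 haemoglobin UMIs and *Alas2* at 2.87 and 2.72. Erythroid barcodes had 1.95 and 2.28 for *Bpgm* and 2.29 and 2.46 for *Alas2*. The log2 ratios to erythroid barcodes were 0.31 and 0.23 for *Bpgm* and 0.32 and 0.14 for *Alas2*, with intervals that excluded 0. *Slc4a1* came to 0.07 (-0.02 to 0.15) and -0.24 (-0.41 to -0.08). Over all non-erythroid barcodes, haemoglobin came to 23327 and 6716 CPM. Over those with fewer than 5 erythroid marker UMIs (2049 and 3199 barcodes) it came to 1936 and 409 CPM.

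In the barcodes with fewer than 5 erythroid marker UMIs, the number of haemoglobin UMIs rose slowly with depth. The barcodes were split by depth into 4 groups of like size. From the shallowest to the deepest group, with median depths of 3405 and 23892 UMIs in the untreated library, the median was 13, 15, 17 and 22 haemoglobin UMIs. In the calcitriol library it was 3, 4, 4 and 5. As a level, the median dropped from 3747 to 844 CPM and from 824 to 183 CPM across the same groups, so a CPM of haemoglobin in a non-erythroid barcode depended on the barcode's depth.

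The other genes were compared with haemoglobin in the same barcodes. The pooled erythroid barcodes served as the reference, although no single proportion held among them, with 0.0454, 1.53 and 4.04 UMIs of *Slc4a1* per 1000 haemoglobin UMIs from the lowest to the highest bin of the untreated library. At the pooled proportion, the haemoglobin UMIs of the untreated barcodes would have come with 125 UMIs of *Alas2* and 81.1 of *Slc4a1*, and 107 and 67 were counted. In the calcitriol library 48.4 and 22.7 would have come, and 57 and 27 were counted. The intervals of these 4 log2 ratios all included 0. *Alas2* was found in 4.10% and 1.22% of these barcodes and *Slc4a1* in 3.17% and 0.844%, against 98.6% and 98.2%, and 71.7% and 61.5%, of erythroid barcodes. The source of these UMIs was not tested. Among the globin genes, *Hbb-bt* was below its share of haemoglobin in erythroid barcodes, at a log2 ratio of -0.37 (-0.41 to -0.33) and -0.46 (-0.53 to -0.39), and so was *Hba-a1*, at -0.17 and -0.13. *Hbb-bs*, at 0.12 and 0.10, and *Hba-a2*, at 0.05 and 0.08, were above theirs, and all 8 intervals excluded 0. These intervals leave out the spread between barcodes, whose mean haemoglobin UMIs, 26.7 and 6.14, exceeded the medians of 17 and 4. Not every class went this way. In calcitriol endothelial barcodes *Hba-a1* stood at 0.39 (0.28 to 0.50) and *Hbb-bs* at -0.12 (-0.20 to -0.04).

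*Bpgm* did not keep the proportion. It had 690 UMIs in the untreated barcodes where 107 would have come, a log2 ratio of 2.69 (2.58 to 2.80), and 1043 in the calcitriol barcodes where 44.8 would have come, a log2 ratio of 4.54 (4.45 to 4.63). At the highest proportion among the 3 bins of erythroid barcodes, 158 and 56.7 UMIs would have come. Over these barcodes *Bpgm* came to 24.4 CPM without and 21.7 CPM with calcitriol, while haemoglobin was 1936 and 409 CPM. Pooled over classes, the level of *Bpgm* was thus similar in libraries whose free haemoglobin differed several-fold. The class make-up differed, with 522 of 2049 and 1187 of 3199 barcodes chondrocyte. By class, *Bpgm* was higher without calcitriol in chondrocyte, fibroblast, tendon, endothelial and Schwann barcodes and lower in osteoblast/osteocyte and smooth muscle barcodes. In fibroblast barcodes alone the intervals, 13.1 to 18.8 and 8.43 to 11.7 CPM, did not overlap. The directions in the other classes are therefore within counting error. Schwann barcodes held 2 *Bpgm* UMIs in each library, and smooth muscle barcodes 4 without and 11 with calcitriol.

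*Bpgm* also varied between cell classes. A UMI of *Bpgm* was found in 28.9% of untreated and 25.02% of calcitriol chondrocyte barcodes (intervals 25.1% to 33.0% and 22.6% to 27.6%) and in 22.5% and 27.6% of osteoblast/osteocyte barcodes. In fibroblast barcodes it was found in 13.1% and 10.6% (10.6% to 16.0% and 8.80% to 12.6%), and in tendon barcodes in 10.8% and 7.67%. As levels, chondrocyte barcodes stood at 34.2 and 29.5 CPM and fibroblast barcodes at 15.8 and 9.97 CPM, the same order as the shares. Endothelial barcodes, which were shallower, had *Bpgm* in 17.2% and 14.9% but stood at 36.0 and 24.9 CPM, so that in the untreated library, though not in the calcitriol library, their place among the classes differed between shares and levels. All barcodes of these classes had median UMIs of 18002 and 16125 for chondrocyte, 11021 and 12045 for fibroblast and 7388 and 7836 for endothelial barcodes. The shares of *Slc4a1*, by comparison, were 4.41% and 0.758% in chondrocyte and 2.78% and 1.12% in fibroblast barcodes, with overlapping intervals. All of these *Bpgm* levels were far below the pooled levels of erythroid barcodes, at 1491 and 1920 CPM. Erythroid barcodes with 3000 or more genes stood nearer to them, at 110 CPM (95.1 to 126) and, on 6 UMIs, at 51.8 CPM (19.0 to 113).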

How the data were processed

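The authors mapped the reads of 3′ droplet libraries (10x Genomics) to mm10 with Cell Ranger 4.0.0 and deposited its filtered matrices of UMI counts, raw and unnormalized, per gene and barcode. All deposited barcodes were kept, including those under 200 genes. No doublets were removed. Levels are pooled UMIs of a gene over all UMIs, as CPM. Intervals are exact (Poisson, conditional binomial, Clopper-Pearson, all 95%). Genes entered a comparison with at least 20 UMIs in both groups together. Barcodes were classed by marker genes without the genes described. Members, markers and lists were chosen with earlier results of these data known. Named were the members, the highest and lowest gene of each list with at least 50 UMIs in the untreated library, and the 3 genes with the highest correlation of log2(CPM + 10) among genes with at least 200 UMIs. Coordinates are from GENCODE M21 and promoters from RefSeq (GRCm38.p6), neither used for counting. Python 3.11.15 with numpy, scipy and pandas was used. The intervals and 2-fold calls were tested on simulated counts. Each choice was varied alone, and UMIs per barcode were added after seeing the data.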

Additional observations from a re-analysis of the deposited data

Results flagged for a closer look

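*Hbb-bt* between under 200 and 200 to under 1000 detected genes had opposite signs in the libraries, with a log2 ratio of -0.015 (untreated) and 0.044 (calcitriol). The difference was not tested, since each group is 1 library, and both values are small beside those of the other globin genes in the same comparison, 0.22 to 0.30 and 0.18 to 0.26. With haemoglobin left out of the totals both were positive (2.11 and 1.86), through a shift that is the same for every gene. As UMIs per barcode both were negative (-0.03 and -0.11).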

How the results depend on the processing

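Of 688 alternative values, 285 stayed within the counting interval, 402 moved outside it and 1 was labelled reversed. The last was *Slc4a1* at 200 to under 1000 against 1000 or more genes in the calcitriol library. It went from -1.05 to 0.56 with haemoglobin left out of the totals. The same comparison in the untreated library also changed sign, from -0.65 to 0.93. Counting intervals are narrow at these depths. Signs changed for more values than the 1 labelled reversed. They changed for 11 of 288 values between bins, at main sizes up to 1.05, and for 27 of 144 between libraries, the latter all at main sizes of 0.44 or less. The log2 ratio of haemoglobin at under 200 against 1000 or more genes, 0.96 in the untreated and 0.94 in the calcitriol library, became 1.00 and 1.18 with barcodes chosen by 10% haemoglobin, 4.66 and 4.37 without haemoglobin in the totals, 0.88 and 0.88 as a mean over barcodes, 0.89 and 0.89 thinned to 2000 UMIs, and 0.41 and 0.30 as UMIs per barcode, an alternative chosen after seeing the data. Without barcodes holding 3 other markers it was 0.94 in the untreated library. The 2 members at least 2-fold higher in each library became 6 and 6 without haemoglobin in the totals, 1 and 1 as UMIs per barcode, and 4 in the calcitriol library by 10% haemoglobin. The shares of all genes were 0.0913% and 0.302% over all UMIs and 5.35% and 6.35% without haemoglobin in the totals. No share over all genes is given for UMIs per barcode or for 10% haemoglobin, so those counts have no background. The 6 include the 4 globin genes. The added rise without haemoglobin in the totals is built in for all of them and for haemoglobin as a whole, since every gene shifts by the same amount. The choice by 10% haemoglobin rests on genes described here and took in 118 untreated and 44 calcitriol barcodes classed non-erythroid. Haemoglobin in non-erythroid barcodes, 23327 and 6716 CPM, became 1936 and 409 CPM with under 5 erythroid marker UMIs, and 23152 and 6552 CPM with at least 1000 genes and 2000 UMIs. The cause was not tested. No paired analysis was possible because each group is 1 library, and for the same reason no replicate could be left out.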
